A study of Mus musculus with 4 samples.

Results

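The embryonic and adult globin genes lie in 2 clusters, and the SCL peaks around both are described here. A peak was included when its summit lay within 100 kb of the span from Hba-x to Hba-a1 on chromosome 11 or of the span from Hbb-y to Hbb-b1 on chromosome 7 (mm9, GENCODE vM1). This rule found 9 of the 12885 peaks of the list, 4 at the alpha-globin cluster and 5 at the beta-globin cluster. The paper counts fewer SCL-bound loci than the deposited list contains. Its methods name a genome viewer, MIG, for filtering peaks but give no settings, so the rule that narrowed the list is not known here. Ranks and shares therefore refer to the full list, and the weakest members may not be among the loci counted by the paper. SCL, encoded by Tal1, was mapped by chromatin immunoprecipitation and sequencing (ChIP-seq) in wild-type J1 mouse ES cells (strain C57Bl/6 X Sv129) differentiated as embryoid bodies to day 3.5, from which FLK1+ mesodermal cells were isolated on magnetic columns. Of the 4 libraries, 2 were precipitated with an in-house rabbit antiserum to SCL and 2 were inputs with no antibody, from 2 independent differentiations. The cells are a culture model of mesoderm entering the blood fate and not cells of an embryo. Because the list holds peaks and no expression, the cell type could not be checked against marker genes. The peaks were called on merged libraries, so the values carry no replicate error and no test over samples was possible.

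Haemoglobin joins alpha-like and beta-like globin chains. In the mouse Hba-x (the zeta chain), Hbb-y and Hbb-bh1 (the epsilon-y and beta-h1 chains) are used by primitive red cells of the yolk sac, while Hba-a1 and Hbb-b1 encode adult alpha and beta chains. Both clusters are known to be switched on by distant elements that lie upstream of the embryonic gene, for the alpha genes partly inside introns of the neighbouring gene Nprl3 and for the beta genes in the locus control region, and in red cells these elements bind GATA1, NF-E2, KLF1 and the complex of SCL with its E-protein, LMO2 and LDB1. SCL and its E-protein partner contact the E-box, whereas GATA factors in the same complex contact a neighbouring GATA motif.

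Sequence under the 3 strongest peaks held an E-box followed by a GATA motif 7 to 9 bp further on, an arrangement found in 9.8% of all peaks and defined only after these sequences had been seen. The 101 bp around these summits (mm9, plus strand, 5′ to 3′) are chr7:111058660-111058760, chr11:32096233-32096333 and chr7:111025742-111025842, shown because they carry this arrangement. In all sequences printed here capitals mark the E-box CANNTG, the GATA motif (GATA with A or T before it and A or G after it, on either strand) and the CTG of a composite.
beta-4: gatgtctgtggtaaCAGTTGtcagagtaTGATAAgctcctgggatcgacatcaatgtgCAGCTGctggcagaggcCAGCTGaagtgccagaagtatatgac
alpha-1: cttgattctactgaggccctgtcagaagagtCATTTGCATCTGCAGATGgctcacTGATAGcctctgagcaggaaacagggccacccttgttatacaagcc
beta-3: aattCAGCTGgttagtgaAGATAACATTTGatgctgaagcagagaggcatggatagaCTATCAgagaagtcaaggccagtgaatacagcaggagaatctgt
The next 2 peaks by fold are shown for contrast, from chr11:32165238-32165338 and chr7:111019303-111019403. The sequence of alpha-3 has a GATA motif but no E-box, and beta-2 has CTG alone, the core of the composite, 8 bp before GATA, with its E-box elsewhere.
alpha-3: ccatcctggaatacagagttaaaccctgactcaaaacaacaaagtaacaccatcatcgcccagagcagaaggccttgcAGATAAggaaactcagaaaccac
beta-2: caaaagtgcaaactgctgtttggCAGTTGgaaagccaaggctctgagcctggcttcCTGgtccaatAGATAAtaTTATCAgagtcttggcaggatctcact
The 101 bp around the summit of beta-1, the peak closest to a globin gene, are chr7:110993228-110993328 and have 1 GATA motif, read on the minus strand, and no E-box.
beta-1: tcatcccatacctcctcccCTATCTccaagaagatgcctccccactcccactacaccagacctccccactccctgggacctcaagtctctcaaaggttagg

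The member genes themselves carried no summit. The alpha genes are Hba-x (ENSMUSG00000055609.2, chr11:32176400-32178116, plus strand) and Hba-a1 (ENSMUSG00000069919.6, chr11:32183511-32184465, plus strand). The beta genes are Hbb-y (ENSMUSG00000052187.3, chr7:111000259-111001754), Hbb-bh1 (ENSMUSG00000052217.4, chr7:110990150-110991678) and Hbb-b1 (ENSMUSG00000052305.5, chr7:110975048-110976610), all on the minus strand. The nearest summit to the transcription start site (TSS) of Hba-x was 11.1 kb upstream and that to Hba-a1 was 18.2 kb upstream, and both were alpha-3. For the beta genes the nearest summit was beta-1, which lay 1.60 kb upstream of Hbb-bh1, 16.7 kb upstream of Hbb-b1 and 8.48 kb downstream of the Hbb-y TSS. Among these genes only Hbb-y and Hbb-bh1 had a summit within 10 kb, and for both it was beta-1. These 2 of 5 compare with 25.3% of all protein-coding genes with a summit in the gene or 10 kb of it. None of the 9 summits lay within 1 kb of any TSS, against 8.47% of all peaks.

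At the alpha-globin cluster (window chr11:32076400-32284465, 12 annotated genes) 3 of the 4 peaks lay upstream of Hba-x and 1 lay downstream of the globin genes. Fold enrichment is the authors' ratio of merged ChIP to local background at the summit. The number of ChIP fragments stacked there (pileup) was solved from the fold and its −log10 p, and all intervals are Poisson 95% confidence intervals of that pileup with the background held fixed, so they cover counting error only. Alpha-1 (chr11:32095832-32096561) had a fold of 72.8 (65.7 to 80.3) from 392 fragments. It was the strongest peak of the cluster and the widest of the 9 at 730 bp, and it sat in an intron of Il9r, the interleukin 9 receptor gene, 80.1 kb upstream of Hba-x. Alpha-3 (chr11:32165121-32165415) had a fold of 22.0 (17.7 to 26.9) from 90 fragments and lay in an intron of Nprl3, 2.26 kb from the TSS of that gene. Nprl3 encodes a regulator of nutrient signalling and is known as the host of alpha-globin enhancers. The other pair of peaks was weak. Alpha-2 (chr11:32124615-32125220), 1.49 kb from the TSS of the DNA repair gene Mpg and 51.4 kb upstream of Hba-x, had a fold of 7.70 (5.40 to 10.7) from 34 fragments. Alpha-4 (chr11:32245654-32245879) had a fold of 6.43 (4.37 to 9.14) from 29 fragments and lay 2.06 kb from the TSS of Sh3pxd2b, an adaptor protein gene, 45.7 kb downstream of the TSS of the last globin gene, Hbq1a.

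**Figure D1:**
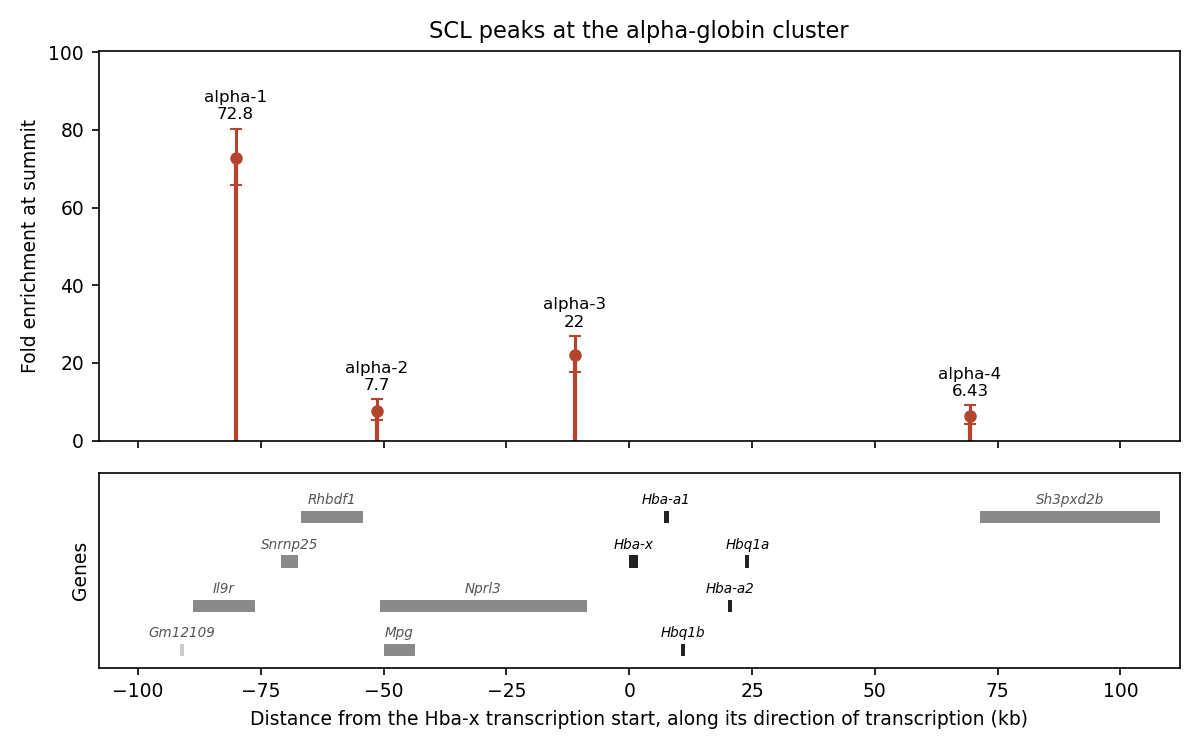
SCL peaks at the alpha-globin cluster, with fold enrichment at each summit (points, with Poisson 95% intervals of the pileup) against distance from the Hba-x TSS in kb and annotated genes below (globin genes in black, pseudogenes in light grey). The tallest peak, alpha-1 at 72.8, lies 80.1 kb upstream, and no summit falls on a globin gene.

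At the beta-globin cluster (window chr7:110875048-111101754, 21 annotated genes, 12 of them olfactory receptor genes) 4 of the 5 peaks lay upstream of Hbb-y and 1 inside the gene cluster, and all 5 were intergenic. Beta-4 (chr7:111058473-111058982), 57.0 kb upstream of Hbb-y and 3.85 kb from the TSS of the olfactory receptor gene Olfr65, had a fold of 137.7 (125.6 to 150.7) from 472 fragments. This was the highest fold of the 9 peaks, and its interval overlapped that of no other fold. By pileup the interval of beta-4 overlapped that of alpha-1. Beta-3 (chr7:111025621-111025962) had a fold of 64.1 (55.9 to 73.1) from 219 fragments, 24.0 kb upstream of Hbb-y. Beta-2 (chr7:111019230-111019501), only 6.44 kb nearer to the gene than beta-3, had a fold of 18.9 (14.6 to 24.1) from 64 fragments. For both the nearest TSS was that of Olfr66, although no gene stands between either summit and Hbb-y in the annotation. Beta-1 (chr7:110993154-110993436), between Hbb-y and Hbb-bh1, had a fold of 10.6 (7.75 to 14.2) from 43 fragments, and it was the single peak of the 9 whose nearest TSS belonged to a globin gene. Beta-5 (chr7:111100069-111100258) lay 98.4 kb upstream of Hbb-y, just inside the limit of the window and nearest to Olfr633, with a fold of 7.18 (4.75 to 10.5) from 25 fragments.

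**Figure D2:**
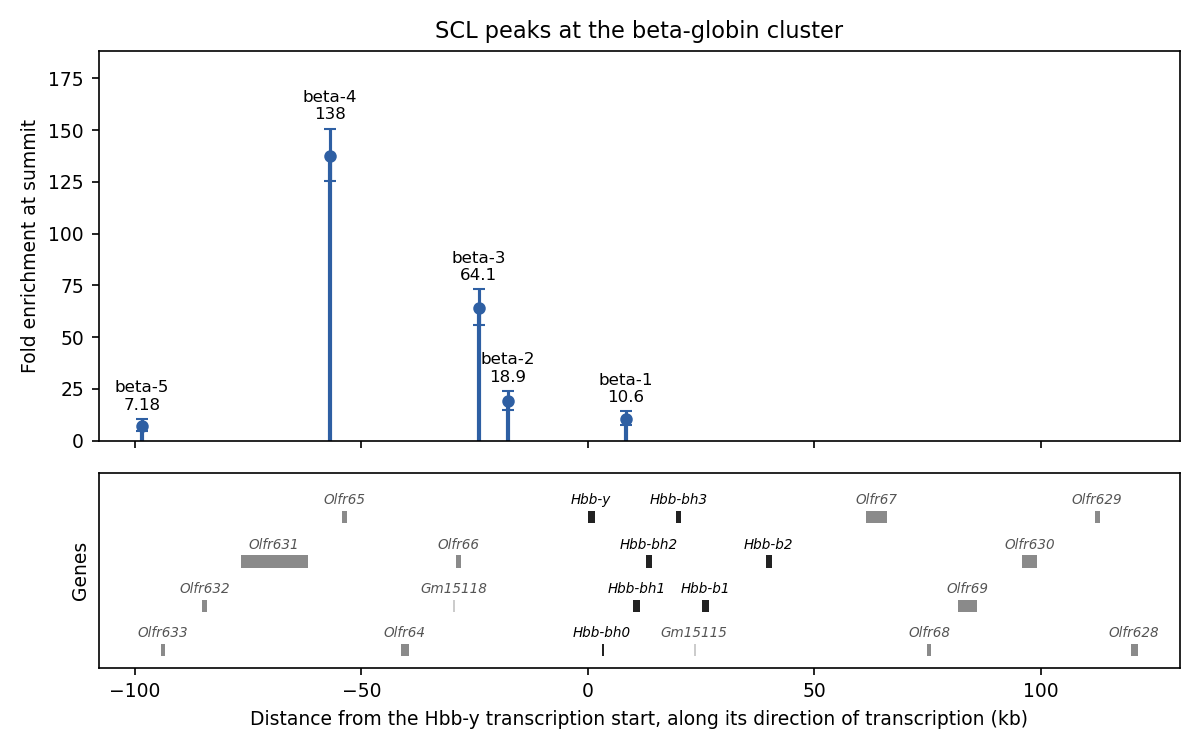
SCL peaks at the beta-globin cluster, drawn as fold enrichment (points, with Poisson 95% intervals of the pileup) against distance from the Hbb-y TSS in kb, with annotated genes below (globin genes and globin pseudogenes in black, other pseudogenes in light grey). Beta-4 at 137.7 and beta-3 at 64.1 stand upstream of Hbb-y, and beta-1 at 10.6 is the only summit among the beta-like genes.

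By their counting intervals the 9 folds fell into 4 levels. Beta-4 stood alone. Alpha-1 and beta-3 had overlapping intervals, as did alpha-3 and beta-2 below them. Beta-1, alpha-2, beta-5 and alpha-4 formed the lowest level, in which every interval overlapped every other, so their order is not resolved at this depth. Each level was clear of the next by fold, but these levels did not hold by pileup. The pileup intervals of beta-4 (430 to 517) and alpha-1 (354 to 433) overlapped, as did those of beta-2 (49.3 to 81.7) and beta-1 (31.1 to 57.9). Those of alpha-1 and beta-3 (191 to 250) did not.

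Within the whole list the globin peaks ran from near the top to near the bottom. Their median fold was 18.9, against 11.1 for all peaks (quartiles 7.84 and 20.1). A fold of at least 10 was reached by 6 of the 9, against 56.6% of all peaks. Beta-4 ranked 91st of 12885, so that 0.706% of peaks were as high or higher, and for alpha-1 and beta-3 this share was 3.59% and 4.59%. It was 22.6% for alpha-3, 26.9% for beta-2 and 52.8% for beta-1. The weakest members were exceeded or equalled by most of the list, namely 76.4% for alpha-2, 82.9% for beta-5 and 90.6% for alpha-4. The folds of both clusters do not rest on equal backgrounds. Local background was 2.43 fragments at beta-2, beta-3 and beta-4, the lowest value in the list. It was 2.62 at beta-5, 3.14 at beta-1 and 3.14 to 4.40 at the alpha peaks. By pileup alone 2.86% of peaks matched or exceeded beta-4, 4.03% alpha-1 and 9.82% beta-3. The median width of the members was 295 bp, against 397 bp for all peaks.

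**Figure D3:**
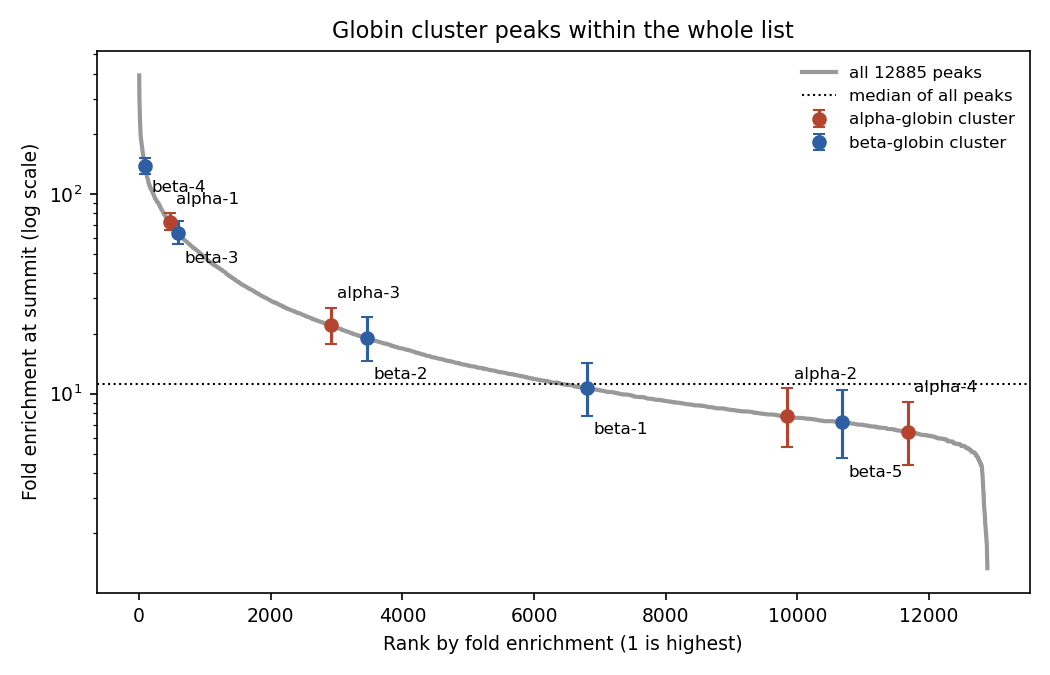
Fold enrichment (log scale) of all 12885 peaks against their rank, with the 9 globin cluster peaks marked and their Poisson 95% intervals of the pileup. The members spread from rank 91 (beta-4) to rank 11673 (alpha-4), and 5 of them lie above the dotted median of all peaks.

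Motifs were searched on both strands within 50 bp of each summit. A match is a description of the letters only, and a palindromic match was counted once. A GATA motif was present at 8 of the 9 summits (73.2% of all peaks) and was missing at alpha-2. An E-box was present at 5 (52.6%), with 3 matches each at alpha-1 and beta-4. The composite of CTG 7 to 9 bp before GATA, in the order in which the SCL complex is known to bind, was present at 2 (32.9%). These were beta-2 with a spacing of 8 bp and beta-3 with 9 bp. Neither beta-4 nor alpha-1 had it. At both, the GATA motif was instead preceded by a full E-box whose last letters on that strand were not CTG, CAGTTG with a spacing of 9 bp at beta-4 and CAGATG with 7 bp at alpha-1. An E-box 7 to 9 bp before GATA was searched for after these sequences had been seen. It occurred at 3 of the 9 summits (9.8% of all peaks), which were the 3 with the highest fold, beta-3 being counted under both arrangements. From the summit it spanned -7 to 9 bp at alpha-1, -36 to -18 bp at beta-4 and -46 to -28 bp at beta-3. Only at alpha-1 did it lie wholly within 25 bp. Either arrangement was present at 4 of the 9 (37.3%). CTG at 12 to 14 bp before GATA, also added later, was found at alpha-1 and beta-3, or 2 of 9 (11.4%).

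Over all peaks the median fold was 12.1 with a GATA motif and 9.17 without. Both motif pairs contain GATA and were set against peaks with and without it. The median fold was 13.4 in the 1263 peaks with an E-box 7 to 9 bp before GATA and 11.0 in the others. For the composite it was 13.3 with and 10.3 without. Among the members the lowest fold with either arrangement was 18.9 and the highest without was 22.0, so these overlapped.

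Motifs of other blood regulators were counted in the same way. The NF-E2 core TGACTCA or TGAGTCA, bound by NF-E2 and its relatives, was present at 1 summit (4.19% of all peaks), alpha-3, centred 21.0 bp from the summit. CACC boxes (CCACCC or CCNCNCCC), recognised by KLF factors, were present at 3 (17.3%), namely alpha-1, alpha-2 and beta-1. The match was CCACCC at alpha-1 and CCACTCCC at beta-1. The 4 matches at alpha-2 overlapped one another in a single run of mostly C on the minus strand, without the letters CACC. The ETS motif AGGAA was present at 5 (51.9%). The RUNX motif TGTGGT was present at 1 (9.56%), beta-4, at 41.5 bp from the summit.

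**Figure D4:**
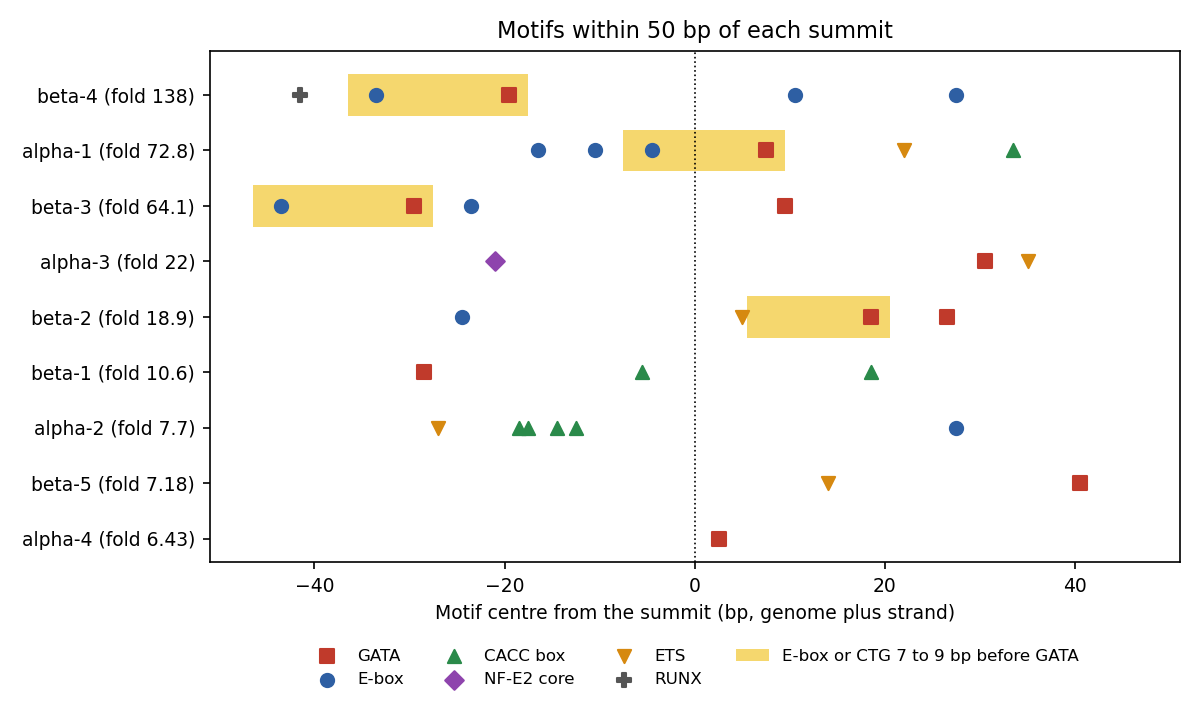
Motif centres in bp from the summit (x axis, plus strand) for the 9 peaks, ordered by fold, with each motif as a symbol and shaded bars for an E-box or CTG 7 to 9 bp before GATA. The bars occur at beta-4, alpha-1, beta-3 and beta-2, and alpha-2 is the only row without a GATA symbol.

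Most composite matches in both clusters were not at a peak. The alpha window held 79 matches to CTG 7 to 9 bp before GATA, of which 0 lay within 50 bp of a summit, and the beta window held 93, of which 2 did. Over both windows this was 1.16% of 172 matches, against 0.493% of the 983863 matches in the genome. Matches were about as dense in the windows, at 0.396 per kb, as in the genome, at 0.385 per kb.

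The promoters of the globin genes held motifs although none was under a peak. Within 250 bp before to 50 bp after the TSS, all 5 member genes had a GATA motif, against 27.5% of 22367 protein-coding promoters, and all 5 had an E-box, against 69.6%. Hbb-y alone of the 5 had the composite, against 6.10%. A CACC box was present at Hba-a1, Hbb-y and Hbb-bh1, or 3 of 5, against 62.2%. No NF-E2 core was found in any of the 5, against 4.42%.

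The number of summits was compared with windows of the same length centred on every protein-coding gene. At least as many summits as at the alpha cluster, 4, were found in 12.2% of 22367 such windows, and at least as many as at the beta cluster, 5, in 7.68%. With genes of the same chromosome only, these shares were 20.2% and 4.97%. The median window held 1 summit in both sets, and the fullest held 23. A summit as high as beta-4 lay in 1.31% of windows of the beta length and one as high as alpha-1 in 5.12% of windows of the alpha length. The nearest summit beyond the alpha window was 61.4 kb outside it (fold 6.74) and that beyond the beta window 151 kb outside it (fold 8.45).

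**Figure D5:**
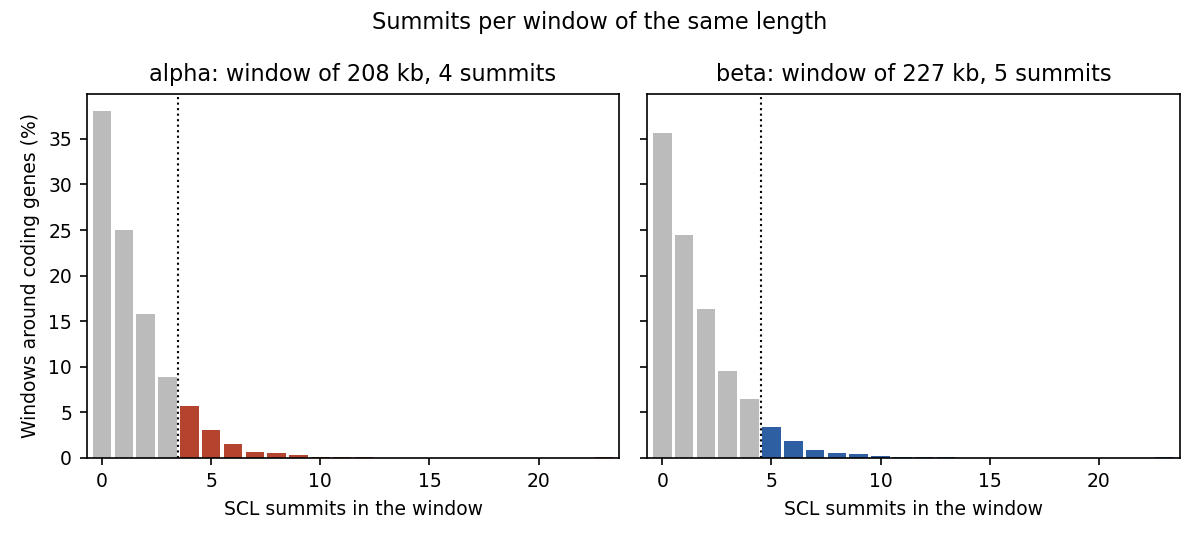
Share of windows around protein-coding genes (%) by the number of SCL summits they hold, for windows of the alpha length (208 kb) and the beta length (227 kb), coloured from the number found at the globin cluster upward. The coloured bars sum to 12.2% and 7.68%.

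Short reads from duplicated globin genes limit what could be seen. The authors kept reads matching up to 2 places. Of the 37-base words of Hba-a1 96.0% also occurred elsewhere, but only 1.20% occurred more than 2 times, and for Hbb-b1 these shares were 69.2% and 0%. Taken singly, 37-base reads of Hba-a1 and its near-identical copy Hba-a2, or of Hbb-b1 and Hbb-b2, can therefore not be told apart over most of the gene. Whether the other read of a pair would place them was not tested. All words were counted by exact match. The authors' aligner setting also allowed mismatches, so words with more than 2 places may be undercounted here. Words with more than 2 places made up 3.78% of the alpha window and 13.0% of the beta window. They were absent from 7 of the 9 peaks and made up 17.4% of alpha-4 and 15.4% of beta-1. Their part in the lower folds of these 2 peaks was not tested.

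Other genes of the globin pathway were read from a list of 34, of which 33 were matched in the annotation. A summit within the gene or 10 kb of it was found at 15 of the 33, against 25.3% of protein-coding genes. The list was chosen with earlier results of these data known. It holds Tal1 itself, partners of SCL and genes the paper reports as SCL targets. The count and the share are therefore not a like comparison, and neither was adjusted for gene length. Of the 8 other globin genes only Hbb-bh2, a beta-like gene, had one, again beta-1 at 4.34 kb. Hba-a2 (31.2 kb from the nearest summit), the theta-like genes Hbq1b (21.7 kb) and Hbq1a (34.8 kb) and Hbb-b2 (30.8 kb) had none, nor did Mb, Cygb or Ngb, which encode myoglobin, cytoglobin and neuroglobin. Of the 25 listed genes that encode regulators of globin genes or neighbour one, as Hbs1l neighbours Myb, 14 had a summit. The highest folds were at Lyl1, the closest relative of SCL (293.9), Cbfa2t3, the co-repressor ETO2 (195.6), Nfe2, a subunit of NF-E2 (190.9), and Zfpm1, the GATA1 partner FOG1 (152.4). Gata1 (142.7), Tal1 itself (127.4), Runx1 (123.8) and Mafk, the small Maf partner of NF-E2 (51.5), followed. By fold beta-4, at 137.7, lay between the strongest summits of Gata1 and Tal1, and alpha-1 and beta-3 lay between those of Runx1 and Mafk. The interval of beta-4 (125.6 to 150.7) held the folds of both Gata1 and Tal1, so its place between them is not resolved. By pileup the order changed. Beta-4 with 472 fragments (430 to 517) was below Gata1 (489), which lay inside that interval, and below Tal1 (530). Alpha-1 with 392 (354 to 433) and beta-3 with 219 were below Mafk (455). No counting intervals were worked out for Tal1 or Mafk. The order of beta-4 against Tal1 and of alpha-1 against Mafk is therefore not resolved. Of 3 repressors of embryonic or fetal globin genes, named here after their values were seen, Sox6 had 4 summits within 10 kb with a highest fold of 38.0, and Bcl11a and Zbtb7a had none. Sox6 is the longest of these 3 genes, and the counts were not adjusted for gene length.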

How the data were processed

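SCL ChIP and input libraries (2 each, grouped by sample title) were sequenced as paired 37-base reads. Per the methods and the submitters' processing notes, the authors aligned them to mm9 with Bowtie 1.1.2, removed duplicates, merged the replicates, called peaks with MACS2 2.0.10 (q of 0.01) against merged input and selected them by IDR. The deposited list gives start, end and summit positions, a fold enrichment (ratio), a −log10 p and a −log10 q per peak. The deposited score, 10 times the −log10 p cut to a whole number in 100% of peaks, was not used. Library depths are not given in the sources used here.

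Pileup and background were solved from the deposited fold, (pileup + 1) / (background + 1), and Poisson p, which matched within 0.001 in 99.9% of peaks, and the solver was checked on simulated data. Pileups of 25 to 472 fragments set the precision of the members. Sequence and genes came from NCBIM37, the build of mm9, and GENCODE vM1, with Python 3.11.15, numpy 2.4.6, pandas 2.3.3 and SciPy 1.17.1. Of the pathway list, every other globin gene and the 8 genes with the highest fold were named, beside all members and the genes nearest to them. Bcl11a, Zbtb7a, Sox6, Klf1 and Gata2 were named outside this rule, after their values were seen. Members, lists and alternatives were chosen with earlier results of these data known. Ranks, shares and medians are descriptions, and no test was run. Alternatives covered the window, peak thresholds, strength measure and motif distance.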

Additional observations from a re-analysis of the deposited data

How the results depend on the processing

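No paired analysis was possible because the deposited list is a single call on merged libraries, and no replicate could be left out for the same reason. The number of peaks followed the window and the threshold. The alpha cluster had 1 peak with a flank of 50 kb and 9 with 500 kb, and 2 at a fold of at least 10 or at a −log10 q of at least 50. The beta cluster had 3 with a flank of 50 kb, 8 with 500 kb and 3 at that −log10 q. With windows centred on genes of the same chromosome only, 20.2% held at least as many summits as the alpha cluster and 4.97% at least as many as the beta cluster. The median share of peaks at or above a member, 26.9% by fold, was 34.2% by −log10 p and 40.4% by pileup. Only 1 member had the composite within 25 bp of its summit, where 19.0% of all peaks had it. After seeing the data, a spacing of 12 to 14 bp (2 members) and a full E-box in place of CTG (3 members) were added, and of the members with these and with the composite only beta-3 had all 3 forms. Of the pathway genes, 28 of 33 had a summit within 100 kb, against 65.5% of protein-coding genes. These 28 include Hba-a2, Hbq1a, Hbq1b, Hbb-b2 and Hbb-bh2, which lie inside the windows and were counted through member peaks. Their counts repeat the members and are not separate findings. Words with more than 1 place made up 6.70% of the alpha window and 16.3% of the beta window. Counts were taken as moved when they changed by over 1.5 times and shares when they left their own 95% interval, which is narrow over the full list, so that small shifts such as 76.4% to 77.6% for alpha-2 count. By this measure 15 alternatives of the summary values moved and 16 did not, which for the added motif arrangements holds for the count and not for which members had them, and for single peaks and motifs 29 moved and 16 did not. An E-box lay within 25 bp of the summit in 2 members (33.0% of all peaks) and within the whole peak in 9 (90.1%), and a GATA motif lay within 25 bp in 5 (48.1%). Counting error leaves the order of the 4 weakest peaks open to change. By fold it also leaves open the order of alpha-1 and beta-3, and of alpha-3 and beta-2. By pileup the intervals of beta-4 and alpha-1 overlapped, as did those of beta-2 and beta-1.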

Other observations

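Over whole peaks the RUNX motif was present in 4 members, against 32.4% of all peaks, and the NF-E2 core in 2, against 12.9%. Base composition differed between the windows, with a GC content of 48.5% at the alpha cluster and 38.4% at the beta cluster. The 101 bp around the member summits had a median GC content of 49.5%, against 50.5% for all peaks. Klf1, which encodes an activator of adult beta-globin, had 1 summit within 10 kb, with a fold of 26.1, and Gata2, which encodes a GATA factor of blood progenitors, had 5, with a highest fold of 41.8. Both were named after their values were seen.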
